A study of Homo sapiens with 9 samples.

Results

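The genes described here encode splicing factors and mRNA export factors. They were chosen by a rule on gene names, set with earlier results of these data known. It took every gene with 1 platform symbol of the SRSF, SF3A, SF3B, SNRP, SNRNP, HNRNP, PRPF, U2AF or THOC families, together with ALYREF, NXF1, DDX39A and DDX39B. The rule found 67 of the 14884 genes tested, after 5 features of 4 HNRNP pseudogenes were left out. By role these were 10 SR proteins, 21 hnRNP proteins, 5 genes of the U1 particle and its partners, 4 of the U2 particle and U2AF, 7 of the Sm core, 10 of the U4/U6.U5 tri-snRNP and its partners, PRPF19, 3 of the minor spliceosome and 6 of THO and mRNA export. The SF3A and SF3B subunits, NXF1 and the DDX39 helicases were not analysed here. SNRNP27 and SNRPE each had 2 features, of which the brighter stood for the gene.

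The cells were BT-549, an established human breast cancer line lacking the hormone receptors and HER2 amplification. They were grown in serum-containing medium and harvested at 72 h after transfection by lipid, with the medium changed at 24 h. One group received a mature miR-150-5p mimic at 50 nM, another a non-specific negative control RNA at the same dose, and the mock group the lipid reagent with no RNA. Each group had 3 arrays, and the labels name no separate cultures, so that the replicate spread behind each p-value may be only technical. Values for single arrays are given in the order of the replicates in the labels. All values below are log2 signals from a whole-transcript array, so a difference of 1 is a doubling, and differences carry the SE of the limma fit (± SE, n = 3 per group). A gene is said to have risen or fallen where the p-value, adjusted by Benjamini and Hochberg over all 14884 genes, was under 0.05. The line's markers were checked first. VIM, the mesenchymal filament vimentin, averaged 9.01, 8.58 and 8.68 in mock, negative control and mimic arrays, and the receptor kinase gene AXL 8.12, 8.23 and 8.40. FN1, the matrix protein fibronectin, averaged 9.18, 8.44 and 8.65, without passing in any comparison. ZEB1, a repressor of epithelial genes, averaged 7.28, 7.06 and 6.70, and fell in the mimic against the negative control (-0.36 ± 0.076, adjusted p = 0.0362) and against mock (-0.58 ± 0.076, adjusted p = 0.00433). EPCAM, GRHL2, ESR1 and PGR, markers of epithelium and of hormone receptors, averaged between 1.77 and 2.24 in every group, below the array medians of 2.43 to 2.48, as did ESRP1, an epithelial splicing regulator, at 1.84 to 1.87. The other epithelial genes were above the array medians: ESRP2 at 2.53 to 2.71, KRT19 at 2.49 to 2.82, KRT8 at 3.66 to 4.10 and KRT18, the brightest, at 7.42 to 7.73. The part of these markers in the results below was not tested.

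Introns are removed from new transcripts by the spliceosome, which is built on each intron from small nuclear ribonucleoproteins (snRNPs). U1 recognises the start of the intron, U2 with U2AF the branch site and the intron's end, and the U4/U6.U5 tri-snRNP then joins and is rearranged into the active enzyme. Each snRNP carries a ring of Sm proteins. SR proteins mostly promote the use of an exon and hnRNP proteins often oppose it. The THO complex and the adaptor ALYREF, which make up the TREX complex with a helicase, are loaded on the spliced mRNA and hand it to the export receptor.

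THOC5, a THO subunit, was the member with the clearest difference. Its signal was 7.10, 6.54 and 6.91 in mock, 6.10, 6.21 and 6.11 with the control RNA, and 7.31, 7.27 and 7.26 with the mimic. The negative control arrays were the lowest and the mimic arrays the highest, and no group overlapped another. THOC5 rose by 1.14 ± 0.127 in the mimic against the negative control (2.20-fold, limma adjusted p = 0.00248), and the call held without each of the 9 arrays, with adjusted p of at most 0.0151. Against mock, the negative control fell by 0.71 on the log2 scale (SE 0.127, adjusted p = 0.0443). That call was kept without mock 2 (limma adjusted p = 0.00864) and lost without any other array (adjusted p from 0.0863 to 0.139). The mimic arrays enter this comparison only through the shared estimate of the spread and its degrees of freedom. Leaving 1 of them out does not alter the difference itself. With the replicate number as a block in the limma fit, adjusted p = 0.0904. The values did not settle whether arrays of the same number are paired. The mimic stood at 0.43 ± 0.127 above mock (adjusted p = 0.104). The other 5 export genes did not pass in any comparison. THOC1, THOC2, THOC6 and THOC7, of the same complex, differed by 0.03 to 0.26 between mimic and negative control, and ALYREF by 0.11. Between the controls, THOC1 (0.18 ± 0.1), THOC6 (0.17 ± 0.185) and THOC7 (0.09 ± 0.14) had the opposite sign to THOC5, and THOC2 (-0.11 ± 0.104) and ALYREF (-0.04 ± 0.0862) the same sign.

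**Figure D1:**
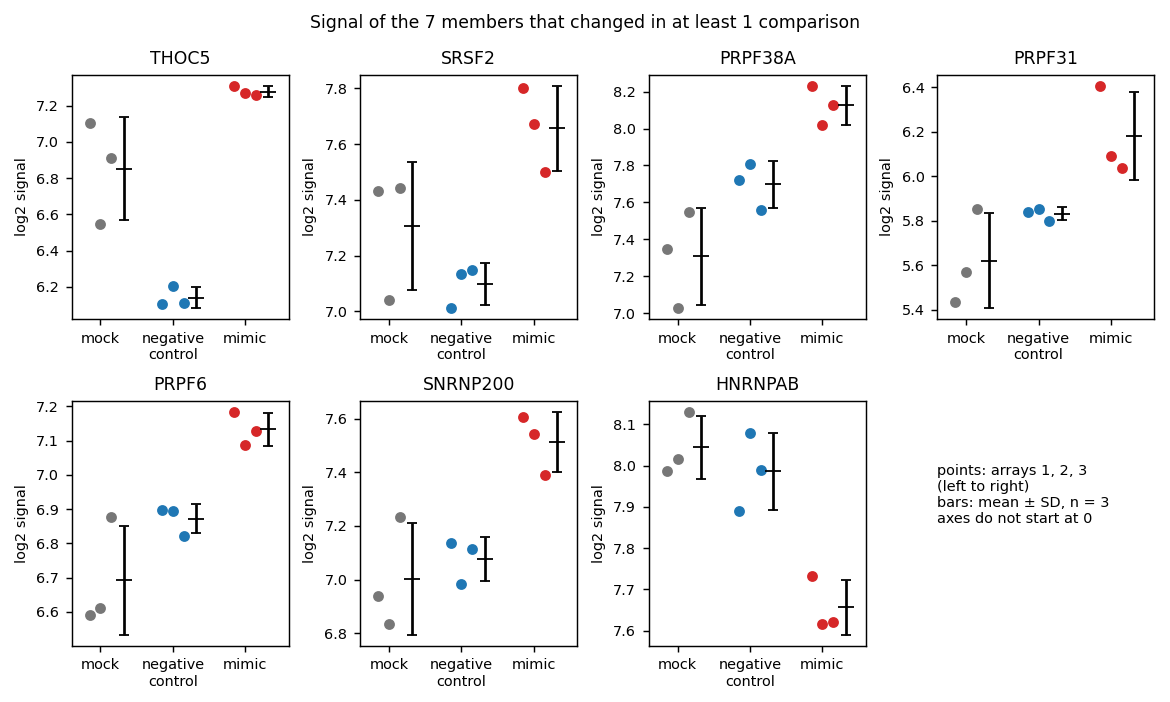
Log2 signal (vertical axis) on each of the 9 arrays for the 7 genes that changed in at least 1 comparison, by treatment (horizontal axis), with the mean ± SD of 3 arrays beside the points. The mimic arrays lie above every other array for THOC5, SRSF2, PRPF38A, PRPF31, PRPF6 and SNRNP200, and below every other array for HNRNPAB.

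In the comparison of mimic with negative control, which sets the microRNA against an unrelated small RNA, 2 of the 67 members rose, 0 fell and 65 did not pass by limma. The 2 that rose, THOC5 and SRSF2, are 2.99% of the members, where 1.76% of all genes rose and 1.42% fell. At an unadjusted p under 0.05 there were 20 members higher and 1 lower, or 21 of 67, where 16% of all genes passed that bar in either direction. Of the 67 differences, 53 were above 0, with a median of 0.17 and quartiles of 0.02 and 0.28, whereas the median over all genes was -0.004. In 29 members (43.3%) mimic and negative control arrays did not overlap, against 18.6% of all genes.

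Most members were bright, so genes of like brightness are given beside them. Members' mean signals ran from 1.59 for HNRNPCL1 to 9.36 for PRPF8, and 57 of the 67 were above the median gene. Between 5.21 and 7.77, the middle of the members' range, the other 3137 genes had a median of 0.08 against the negative control, with 62.5% above 0, 4.75% risen and 33.9% without overlap. The 33 members in that range had a median of 0.24, with 81.8% above 0 and 45.5% without overlap. How much of the members' shift goes with their brightness was not tested. After a second quantile normalization 44 members were above 0, with a median of 0.13.

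**Figure D2:**
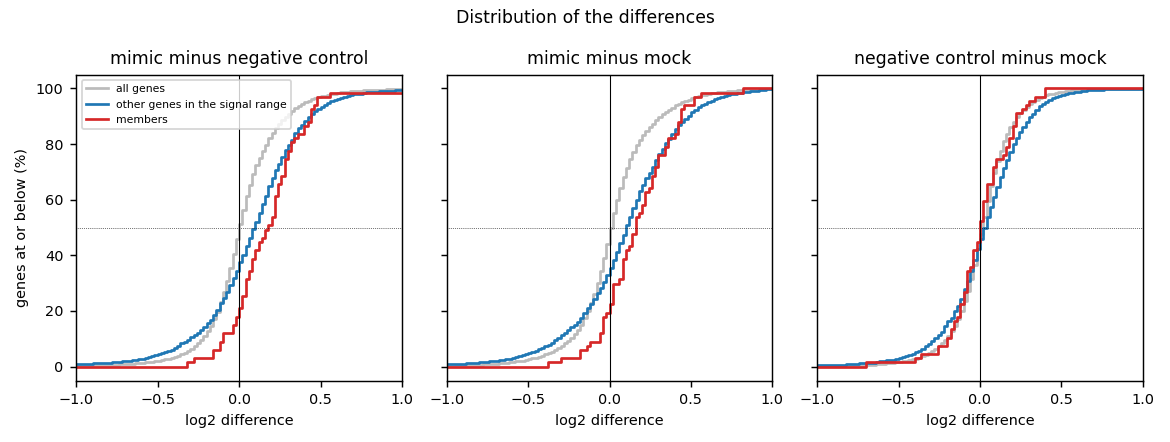
Cumulative percent of genes (vertical axis) at or below each log2 difference (horizontal axis) for the 67 members, all 14884 genes and the 3137 other genes with a mean signal of 5.21 to 7.77. Only 33 of the members lie in that signal range. Around the middle of both mimic comparisons the members' curve lies to the right of all genes, with medians of 0.17 and 0.15, and the genes of like brightness have medians of 0.08 and 0.10 but spread more widely in both tails; for negative control minus mock the members' median is near 0.

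Against mock, 4 members rose, 1 fell and 62 did not pass, again by limma. These are 5.97% and 1.49% of the members, where 2.28% and 1.62% of all genes rose and fell. There were 52 members above 0, the median was 0.15 and that over all genes was 0. The groups did not overlap for 24 members (35.8%), against 20.2% of all genes. Within the signal range of 5.21 to 7.77, 51.5% of the 33 members and 38.1% of the other genes did not overlap, 12.1% and 6.22% rose, and the medians were 0.22 and 0.10. The count of rises varied when 1 array was left out. It was 0 without mimic 1 and 1 without mock 1, mock 2, negative control 1 or mimic 2, but 8 without mock 3. It was 2 without negative control 3. The negative control arrays enter this comparison only through the shared estimate of the spread and its degrees of freedom. The negative control against mock had 0 rises and 1 fall, that of THOC5, where 0.168% of all genes rose and 0.477% fell (3 members were higher and 4 lower at an unadjusted p under 0.05, a bar that 11% of all genes passed). Here 32 members were above 0 and 35 below, the median was -0.005, and 7 members did not overlap (10.4%, against 12% of all genes). The comparisons share arrays, so their counts are not independent of each other.

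Counted against all 6 control arrays at once, the 3 mimic arrays were highest for 16 members (23.9%), against 5.76% of all genes. In the signal range of 5.21 to 7.77 this held for 11 of the 33 members (33.3%) and 14.6% of the other genes. The mimic arrays were lowest for 2 members, HNRNPAB and HNRNPH3 (2.99%, against 3.79% of all genes). The 16 were 6 genes of the tri-snRNP class, 4 SR proteins, 4 hnRNP proteins, SNRPG and THOC5.

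**Figure D3:**
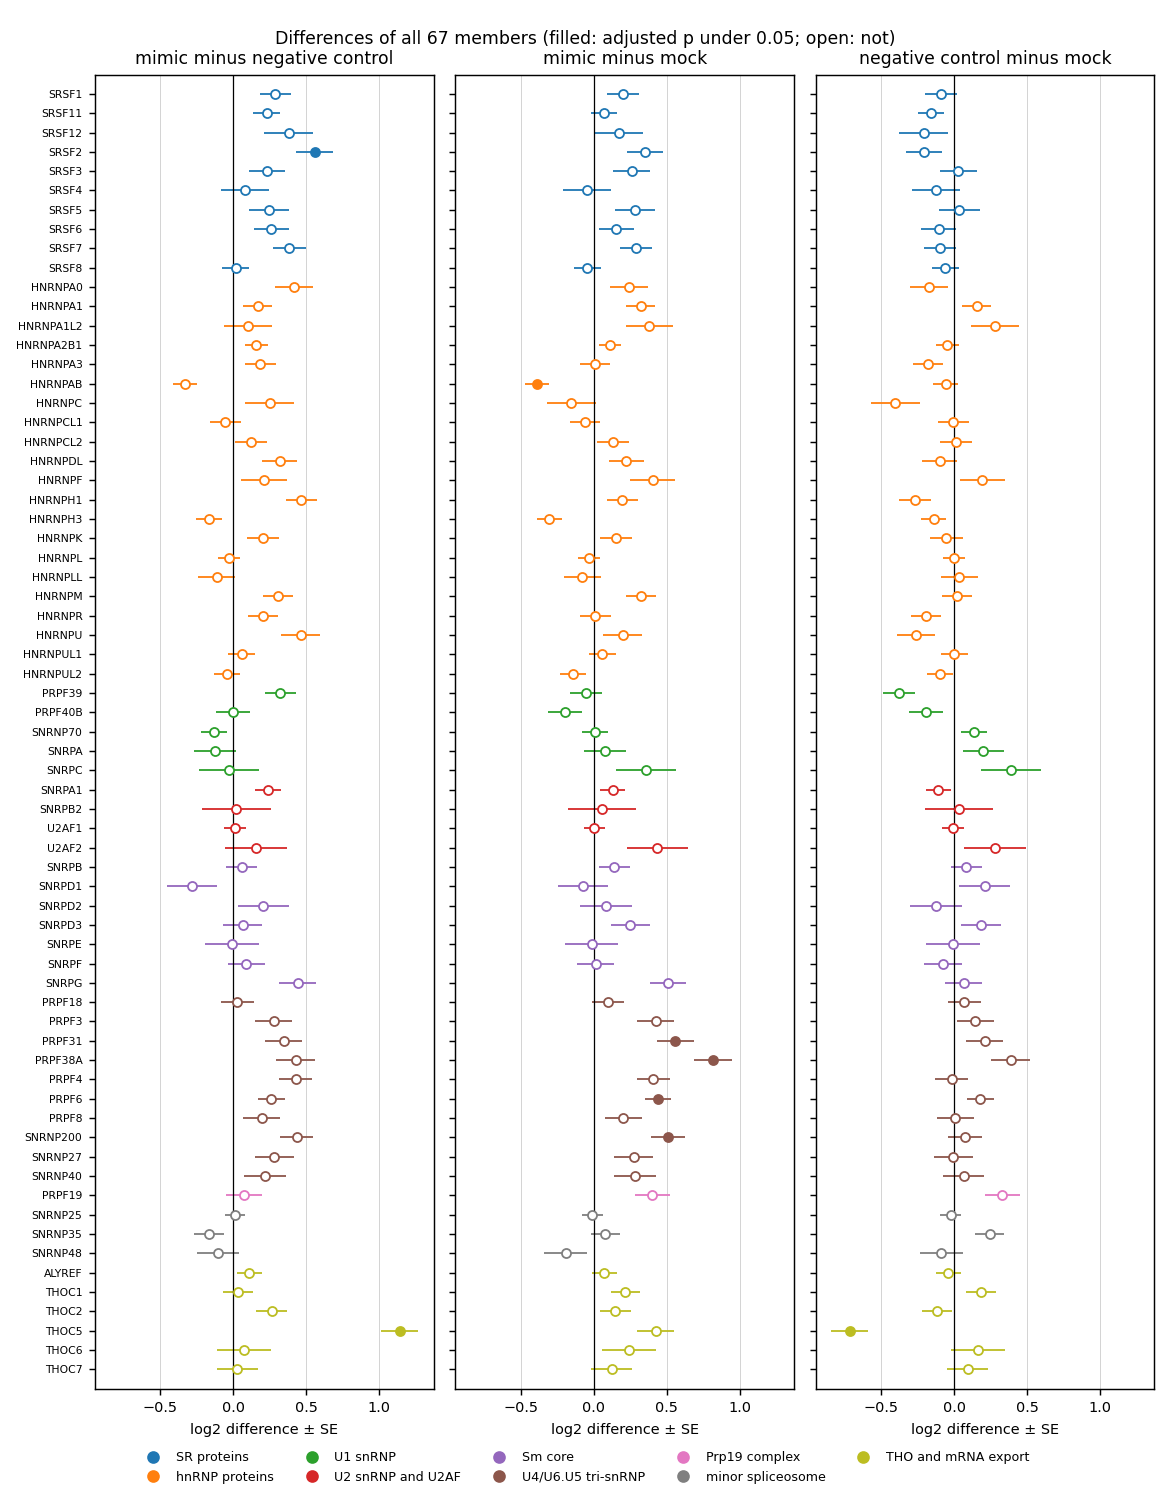
Log2 difference ± SE (horizontal axis) of each of the 67 members (rows, coloured by role) in the 3 comparisons, filled where the adjusted p was under 0.05. All 10 SR proteins and all 10 tri-snRNP genes are above 0 in mimic minus negative control; THOC5 is the outermost gene there (1.14) and in negative control minus mock (-0.71).

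Among SR proteins, which carry arginine-serine repeats and bind exon sequences, all 10 differences from the negative control were above 0, with a median of 0.25, and 1 rose. All 10 stayed above 0 under both other scalings of the arrays, and 8 without mimic 2. SRSF2, which binds splicing enhancers in exons, read 7.43, 7.04 and 7.44 in mock, 7.01, 7.14 and 7.15 with the control RNA, and 7.80, 7.67 and 7.50 with the mimic. The mimic arrays were above all others, and the mock arrays overlapped the negative control. SRSF2 rose by 0.56 ± 0.125 against the negative control (adjusted p = 0.0448). The call was lost without every array except mock 2, with adjusted p up to 0.156. Against mock SRSF2 stood at 0.35 ± 0.125 (adjusted p = 0.172).

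The other SR proteins did not pass. SRSF7, an SR protein with a zinc knuckle that also takes part in export, was at 0.39 ± 0.11 (adjusted p = 0.105), and SRSF12, which read only 2.18 to 2.96, at 0.38 ± 0.168. SRSF1, the founding member of the family, was at 0.29 ± 0.108, SRSF6 at 0.26 ± 0.118, SRSF5 at 0.25 ± 0.139, SRSF11 at 0.23 ± 0.0904 and SRSF3 at 0.23 ± 0.125. SRSF4 (0.08 ± 0.165) and SRSF8 (0.02 ± 0.0907) were nearest 0. In 8 of the 10 the mimic arrays did not overlap the negative control, which held for 18.6% of all genes and 33.9% of the other genes in the signal range of 5.21 to 7.77. Of these 8, SRSF1, SRSF3 and SRSF11 were brighter than that range, with mean signals of 8.97, 8.19 and 8.59, and SRSF12 was dimmer, at 2.42. Against mock the median was 0.19, with 8 above 0, 0 changed and SRSF4 and SRSF8 both at -0.04. In the negative control against mock 8 of the 10 were below 0, with a median of -0.10 and none passing. SRSF3 and SRSF5 were the 2 above 0.

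The tri-snRNP class held 4 of the 5 members that changed against mock. All 10 of its genes were above 0 in both mimic comparisons, with a median of 0.28 against the negative control and 0.42 against mock; with a second quantile normalization 9 were above 0 against the negative control, and all 10 against mock. PRPF38A, the counterpart of a yeast tri-snRNP protein, read 7.35, 7.03 and 7.55 in mock, 7.72, 7.81 and 7.56 with the control RNA, and 8.23, 8.02 and 8.13 with the mimic. The groups were stepped with no overlap, negative control above mock and mimic above both. It rose by 0.82 ± 0.133 against mock (1.76-fold, adjusted p = 0.0125, and 0.0595 without mimic 1). It stood at 0.43 ± 0.133 against the negative control (adjusted p = 0.136), and the negative control at 0.39 ± 0.133 against mock without passing.

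PRPF31, which holds U4/U6 and U5 together, read 5.44, 5.57 and 5.86 in mock, 5.84, 5.86 and 5.80 with the control RNA, and 6.41, 6.09 and 6.04 with the mimic. Mimic 1 was the highest, and all mimic arrays were above the rest. PRPF31 rose by 0.56 ± 0.127 against mock (adjusted p = 0.0451, lost without each array except mock 3, up to 0.149). PRPF6, which bridges the parts of the tri-snRNP, read 6.59, 6.61 and 6.88 in mock, 6.90, 6.89 and 6.82 with the control RNA, and 7.18, 7.09 and 7.13 with the mimic. Mock 3 lay within the negative control's range, and the mimic arrays were again above all others. PRPF6 rose by 0.44 ± 0.0916 (adjusted p = 0.0326). Its call was lost without mock 1, mock 2, negative control 1 or any mimic array, with adjusted p up to 0.116.

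SNRNP200 encodes the helicase that unwinds U4 from U6. It read 6.94, 6.83 and 7.23 in mock, 7.14, 6.98 and 7.11 with the control RNA, and 7.61, 7.54 and 7.39 with the mimic. Mock and negative control overlapped, and the mimic was above both. SNRNP200 rose by 0.51 ± 0.114 against mock (adjusted p = 0.0414), a call kept without mock 3 or negative control 2 and lost without any other array (up to 0.149). Against the negative control it was at 0.44 ± 0.114 (adjusted p = 0.0791). PRPF4, of the U4/U6 particle, was at 0.43 ± 0.115 against the negative control and 0.41 ± 0.115 against mock, and its partner PRPF3 at 0.28 ± 0.126 and 0.42 ± 0.126, with none of the 4 differences passing. PRPF8, the scaffold of the catalytic centre, differed by 0.20 ± 0.126 from each control. SNRNP27 and SNRNP40 were each at 0.28 against mock. The dimmer feature of SNRNP27 averaged 2.12 to 2.15 by group, with the mimic at -0.03 against mock. PRPF18, which acts at the second step of splicing, was at 0.10 ± 0.112 against mock. The spread among mock arrays bears on this class: the median deviation of its 10 genes from their own means was -0.25, -0.28 and 0.01 in mock, -0.02, 0.01 and -0.11 with the control RNA, and 0.31, 0.18 and 0.16 with the mimic. Mock 3 was thus level with the negative control arrays while mock 1 and 2 were lower.

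**Figure D4:**
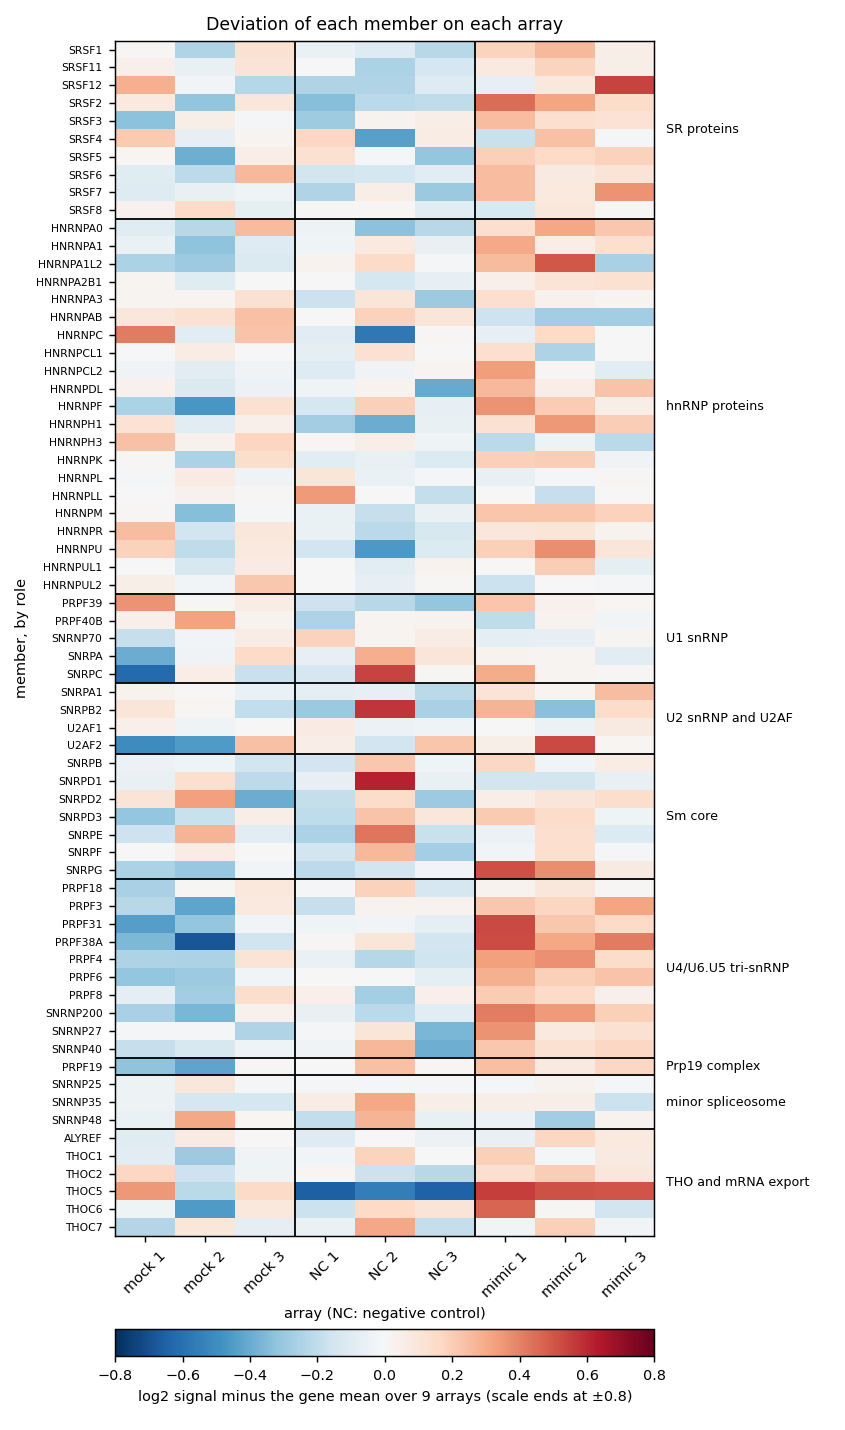
Log2 signal of each of the 67 members (rows, grouped by role) on each of the 9 arrays (columns), as the deviation from that gene's mean, red above and blue below. The mimic columns are mostly red among SR proteins and tri-snRNP genes, where the median deviations on mimic 1 to 3 were 0.183, 0.145 and 0.109, and 0.306, 0.181 and 0.162.

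The promoters of the 4 tri-snRNP genes that rose against mock are shown, with those of THOC5 and of HNRNPAB, which fell. Each is the RefSeq window from 250 bases before to 50 after the gene's start in build GRCh38.p14. PRPF38A lies at chr1:52404352-52404651 on the plus strand, PRPF31 at chr19:54115504-54115803 on the plus strand, PRPF6 at chr20:63980882-63981181 on the plus strand and SNRNP200 at chr2:96305497-96305796 on the minus strand. THOC5 lies at chr22:29553708-29554007 on the minus strand and HNRNPAB at chr5:178204283-178204582 on the plus strand. Capitals mark the letters of 6 motifs searched on both strands, namely CACGTG (E-box), CCGGAAG (bound by ETS factors), GCATGCGC (NRF1-like), CCAAT, AAGATGGC (YY1-like) and TATAAA; no motif contains another.
PRPF38A: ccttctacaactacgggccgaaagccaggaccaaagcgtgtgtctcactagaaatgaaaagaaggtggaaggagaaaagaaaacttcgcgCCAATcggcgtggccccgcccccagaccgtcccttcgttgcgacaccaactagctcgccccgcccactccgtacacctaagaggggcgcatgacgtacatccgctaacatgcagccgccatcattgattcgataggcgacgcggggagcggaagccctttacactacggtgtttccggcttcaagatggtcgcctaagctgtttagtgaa
PRPF31: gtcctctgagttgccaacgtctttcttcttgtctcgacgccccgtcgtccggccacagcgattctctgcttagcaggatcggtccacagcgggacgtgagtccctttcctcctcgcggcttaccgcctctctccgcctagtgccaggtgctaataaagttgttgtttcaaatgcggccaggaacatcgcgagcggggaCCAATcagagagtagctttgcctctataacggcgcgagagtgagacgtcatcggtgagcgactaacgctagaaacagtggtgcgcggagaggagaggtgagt
PRPF6: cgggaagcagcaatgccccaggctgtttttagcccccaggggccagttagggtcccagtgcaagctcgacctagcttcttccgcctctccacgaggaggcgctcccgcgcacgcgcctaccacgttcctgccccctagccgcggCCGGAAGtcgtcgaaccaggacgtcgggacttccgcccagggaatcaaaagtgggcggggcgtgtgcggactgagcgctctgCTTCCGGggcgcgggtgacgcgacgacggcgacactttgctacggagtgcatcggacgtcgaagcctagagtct
SNRNP200: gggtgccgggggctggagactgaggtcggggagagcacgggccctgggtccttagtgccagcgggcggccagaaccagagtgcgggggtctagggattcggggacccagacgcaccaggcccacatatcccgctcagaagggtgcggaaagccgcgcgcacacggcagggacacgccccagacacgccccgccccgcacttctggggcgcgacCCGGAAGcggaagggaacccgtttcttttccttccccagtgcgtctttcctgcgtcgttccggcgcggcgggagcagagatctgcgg
THOC5: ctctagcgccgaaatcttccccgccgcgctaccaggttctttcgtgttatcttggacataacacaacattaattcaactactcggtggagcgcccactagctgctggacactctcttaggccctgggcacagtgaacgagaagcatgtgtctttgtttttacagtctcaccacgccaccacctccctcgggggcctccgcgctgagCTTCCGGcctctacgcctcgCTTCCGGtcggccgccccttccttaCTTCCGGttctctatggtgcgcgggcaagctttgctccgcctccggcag
HNRNPAB: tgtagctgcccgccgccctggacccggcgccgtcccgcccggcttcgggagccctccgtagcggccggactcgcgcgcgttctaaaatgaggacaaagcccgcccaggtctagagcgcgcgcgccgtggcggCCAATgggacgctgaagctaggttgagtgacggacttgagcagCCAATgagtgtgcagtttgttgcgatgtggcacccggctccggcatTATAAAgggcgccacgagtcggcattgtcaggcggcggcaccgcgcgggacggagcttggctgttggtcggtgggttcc

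The 6 promoters shown did not share 1 motif. SRSF2, which also changed, had no promoter among those available. THOC5 held 3 matches of CCGGAAG, all read on the opposite strand, PRPF6 held 2 and SNRNP200 held 1. PRPF38A and PRPF31 held CCAAT once each, and HNRNPAB held it in 2 places and was the only one of the 6 with TATAAA. Of the 67 members, 60 had a promoter in the table. CCGGAAG was found in 18 of these (30.0%), in 14.2% of 15843 protein-coding genes and in 10.7% of all 27305 promoters. CCAAT was found in 31 members (51.7%), against 36.4% of protein-coding genes and 35.7% of all promoters. TATAAA and CACGTG were found in 6 each (10.0%), against 9.6% and 8.9% of protein-coding genes and 12.0% and 7.4% of all promoters. GCATGCGC and AAGATGGC were found in 1 each (1.7%), against 4.3% and 3.9% of protein-coding genes and 3.3% and 3.0% of all promoters. A match is a description of the letters and not evidence of binding.

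The hnRNP genes, which encode abundant proteins that coat nascent transcripts, did not move as one. Against the negative control 15 of 21 were above 0, with a median of 0.17 and 0 changed, and against mock 14, with a median of 0.11, 0 risen and 1 fallen. HNRNPAB, which binds both RNA and single-stranded DNA, read 7.99, 8.02 and 8.13 in mock, 7.89, 8.08 and 7.99 with the control RNA, and 7.73, 7.62 and 7.62 with the mimic. The mimic arrays were below all 6 others, which overlapped. HNRNPAB fell by 0.39 on the log2 scale against mock (SE 0.0834, adjusted p = 0.0368). The call was kept without negative control 1 or 2 and lost without any other array (up to 0.105). Against the negative control it stood at -0.33 ± 0.0834 (adjusted p = 0.071), and HNRNPH3 was the next lowest in both comparisons (-0.17 ± 0.0866 and -0.30 ± 0.0866), without passing.

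On the other side, HNRNPH1, which binds runs of G, was at 0.47 ± 0.108 against the negative control and did not pass (adjusted p = 0.0513). It read 6.73, 6.52 and 6.65 in mock, 6.33, 6.21 and 6.55 with the control RNA, and 6.73, 6.95 and 6.81 with the mimic. HNRNPU, a nuclear matrix protein, was at 0.46 ± 0.133, HNRNPA0 at 0.42 ± 0.129, HNRNPDL at 0.32 ± 0.12 and HNRNPM at 0.31 ± 0.103, with no mimic array overlapping the negative control. Against mock, HNRNPH1 was at 0.20 ± 0.108, HNRNPU at 0.20 ± 0.133, HNRNPA0 at 0.24 ± 0.129, HNRNPDL at 0.22 ± 0.12 and HNRNPM at 0.33 ± 0.103. None of these passed, and for HNRNPU and HNRNPA0 the mimic overlapped mock. The negative control was at -0.27, -0.26, -0.17, -0.10 and 0.02 against mock for these genes in the same order. HNRNPF, a relative of HNRNPH1, had the largest difference from mock, at 0.40 ± 0.155 (adjusted p = 0.205). HNRNPC, which binds runs of U, had the largest difference between the controls, the negative control being at -0.40 ± 0.168 against mock (adjusted p = 0.423). HNRNPL (-0.03 ± 0.075) and HNRNPUL1 (0.06 ± 0.0937) were near 0 in the mimic against either control. HNRNPA1 (0.17 ± 0.101 and 0.32 ± 0.101) has many near-identical copies in the genome, so its values are uncertain. The 2 features of one such copy, HNRNPA1P10, averaged 8.27 and 10.77 in the negative control, where HNRNPA1 averaged 6.71. In the mimic these 2 features differed by 0.07 and -0.14 from the negative control and by -0.06 and -0.09 from mock. HNRNPA1L2, HNRNPCL1 and HNRNPCL2, copies of HNRNPA1 and HNRNPC, read from 1.35 to 2.78 on all arrays, around or below the array medians of 2.43 to 2.48. Their parent genes read far higher, HNRNPA1 at 6.39 to 7.02 and HNRNPC at 6.37 to 7.36. The part of the parents' transcripts in these low signals was not tested.

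The Sm core and the U1 and U2 genes showed no change in any comparison by limma. Among the 7 Sm genes the largest differences from the negative control were those of SNRPG (0.44 ± 0.126, adjusted p = 0.105) and SNRPD1 (-0.28 ± 0.173). SNRPG was also at 0.51 ± 0.126 against mock (adjusted p = 0.0585), but read only 2.04 to 2.85, around the array medians. SNRPD1 read 7.24 on negative control 2 and 6.42 to 6.76 on the other 8 arrays. Of U1 genes, PRPF39, a partner of U1, was at 0.32 ± 0.108 against the negative control and -0.05 ± 0.108 against mock, with the negative control at -0.38 ± 0.108 against mock (adjusted p = 0.206). It read 6.57 to 6.91 on mock, 6.24 to 6.39 on negative control and 6.57 to 6.78 on mimic arrays, so the negative control lay below both. SNRPC, a U1 protein at the start of the intron, was at 0.36 ± 0.205 against mock and -0.03 ± 0.205 against the negative control. SNRNP70 and SNRPA, the other U1 proteins, were at -0.13 ± 0.0886 and -0.12 ± 0.142 against the negative control. Of U2 genes, SNRPA1 was at 0.24 ± 0.0863 and SNRPB2 at 0.02 ± 0.235. U2AF2, which reads the pyrimidine tract, was at 0.44 ± 0.211 against mock, with mock 3 at 8.19 and mock 1 and 2 at 7.46 and 7.50, and U2AF1, which reads the last bases of the intron, was at 0.01 against both controls.

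PRPF19, the ubiquitin ligase of the complex that activates the spliceosome, was at 0.40 ± 0.121 against mock (adjusted p = 0.106) and 0.07 ± 0.121 against the negative control. The minor spliceosome genes SNRNP25, SNRNP35 and SNRNP48 showed no change. Their largest differences were those of SNRNP35 between the controls (0.24 ± 0.1) and SNRNP48 against mock (-0.19 ± 0.145).

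Other genes of splicing and export, taken from lists that do not overlap the members, are given by list. Of all genes, 1.76% rose and 1.42% fell against the negative control, and 2.28% and 1.62% against mock. Of 53 further spliceosome genes, 3 rose and 0 fell against the negative control, with a median of 0.17, and 1 rose against mock, with a median of 0.20. The 3 were CWC25, which acts at the first step of splicing (0.49 ± 0.11, adjusted p = 0.0443), CCAR1 (0.45 ± 0.093, adjusted p = 0.0352) and the helicase gene DHX8 (0.44 ± 0.0902, adjusted p = 0.0321). MFAP1, a spliceosome protein, was the one that rose against mock (0.77 ± 0.118, adjusted p = 0.00901). Of 49 splicing regulators 0 rose and 1 fell against the negative control, namely PTBP3 (-0.67 ± 0.105, adjusted p = 0.0107), which represses exons, and 0 changed against mock. Of 15 genes that assemble snRNPs, 2 rose against mock, GEMIN7 (0.95 ± 0.186, adjusted p = 0.0265) and GEMIN4 (0.69 ± 0.132, adjusted p = 0.0233), both partners of SMN, which loads the Sm ring. Of 31 other export genes, the nuclear pore gene NUP160 rose against the negative control (0.50 ± 0.0973, adjusted p = 0.0271) and against mock (0.50 ± 0.0973, adjusted p = 0.0254), and GLE1, which works with an export helicase at the pore, fell against the negative control (-0.59 ± 0.122, adjusted p = 0.0339). The 5 exon junction genes did not change, and none of these lists had a call in the negative control against mock. Against mock the mimic was at -0.36 for GLE1, -0.32 for PTBP3, 0.18 for DHX8, 0.44 for CWC25 and 0.36 for CCAR1, none passing. The negative control was at 0.23, 0.34, -0.26, -0.06 and -0.09 against mock for these genes in the same order. Medians against the negative control and mock were 0.03 and 0.01 for the splicing regulators and 0.10 and 0.24 for the snRNP assembly genes. They were -0.02 and 0.11 for the exon junction genes and 0.11 and 0.14 for the other export genes. For the 3137 other genes with a mean signal of 5.21 to 7.77 they were 0.08 and 0.10.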

How the data were processed

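RNA from 9 samples of BT-549 cells, grouped by labelled treatment, was hybridised to Affymetrix Human Gene 2.0 ST arrays. The deposited signals are on the log2 scale and were computed with RMA, per the submitters' processing notes, which give no version. Per the labels' protocols, RNA was extracted with Trizol and 1 ug labelled with a FlashTag biotin kit. RMA brings the arrays to near-identical distributions, so differences are relative to the other genes. The table held 53617 features, 0 missing values and 0 unused columns.

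The platform annotation gave 16098 features 1 symbol. The brightest feature stood for each gene, giving 14884 genes with no filter on signal. The test was limma 3.58.1 (R 4.3.3; lmFit, then eBayes; 1 mean per group, all 9 arrays, 9.60 total degrees of freedom) over all genes together, with two-sided p-values adjusted by Benjamini and Hochberg. The pipeline was tested on simulated data. Members, role classes and lists were chosen with earlier results of these data known, so no pattern is independent support. Members were named with all arrays where they changed in at least 1 comparison. Each class was also described by its members with the largest difference, and each list by its changed genes; further members were named after their values were seen. Promoters are RefSeq's. Array medians were 2.43 to 2.48. Across features, which are not independent, any pair of arrays correlated at r = 0.977 to 0.989. Precision is limited by the number of arrays.

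Pairing was checked by correlating, across genes, deviations from group means. Same-numbered arrays of the controls correlated at r = 0.152, 0.225 and 0.147, and differently numbered ones at r = -0.158 to 0.0224. Yet negative control 2 and mimic 1, of different numbers, correlated at r = 0.24, so such values do not settle a pairing. The correlations share arrays and group means and are not independent, and the labels name no pairing. Mimic arrays correlated with their same-numbered controls at r = -0.292 to -0.0544 and were not taken as paired.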

Additional observations from a re-analysis of the deposited data

How the results depend on the processing

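The median difference of the members moved by less than 0.0418 under every alternative run in all 3 comparisons. That bound is the SD between replicates of the members' median on single arrays, not the spread of a difference between groups. Against mock the median was 0.149, but 0.11 with a second quantile normalization and 0.113 without mock 2. Against the negative control it was 0.168, but 0.134 with a second quantile normalization and 0.207 without mimic 3. With a filter at the median of signal, however, the median over all genes tested against mock rose from 0 to 0.057, so that the members' excess over it was 0.099 rather than 0.149; against the negative control the excess was 0.158 rather than 0.173. Across the settings no named gene's call turned to the opposite direction. Calls were less stable. Members that rose in the mimic against the negative control numbered 1 rather than 2 with a second quantile normalization (where 1 also fell, HNRNPAB), over all features, with a variance trend, and with a replicate block, and 7 with the mean signal of 23 snoRNAs and scaRNAs as a covariate. Against mock, the 4 rises became 2 with a second quantile normalization or a variance trend, and 1 over all features, with the 6 arrays compared only, with a replicate block, or without mock 2 and negative control 2 together. The 1 fall there became 0 with centring on medians, over all features, with a variance trend, with 6 arrays, with a replicate block and without those 2 arrays, and 2 with array weights. The fall of THOC5 in the negative control against mock became 0 with centring, over all features, with 6 arrays, with a replicate block, and with a replicate block on 6 arrays only (adjusted p = 0.176). Leaving out 1 array at a time gave 1 to 3 rises against the negative control, 0 to 8 rises and 0 to 1 falls against mock, and 0 to 1 falls between the controls.

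Over all genes, 473 changed against the negative control, 251 with 6 arrays, 292 with a replicate block and 199 to 431 without 1 array. Against mock it was 580, and 329 over all features, 904 with array weights, 321 with 6 arrays, 346 with a replicate block and 188 to 650 without 1 array. Between the controls it was 96, and 150 with a filter at the median, 18 with 6 arrays, 61 with a replicate block, 153 with the covariate, 28 without those 2 arrays, 21 to 112 without 1 array, and 0 by limma with a replicate block on 6 arrays (1735 at an unadjusted p under 0.05). The share of rises among changed genes was 55.4% against the negative control and 58.4% against mock, and 37.8% and 44.6% with a second quantile normalization; between the controls it was 26.0% and 41.2%. Fits without mock 2 and negative control 2 together, and the replicate block on 6 arrays, were chosen after seeing the data. The causes were not tested, apart from the smaller number of arrays or larger number of features that some alternatives have by construction.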

Other observations

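Negative control 2 and mock 2 stood apart from the other arrays of their groups for several members. Negative control 2 was the highest of the 9 arrays for 12 members, among them the Sm genes SNRPB, SNRPD1, SNRPD3, SNRPE and SNRPF, with SNRPA, SNRPB2 and SNRPC, and the lowest for 10, among them HNRNPC, HNRNPU and SRSF4. The share of all genes highest or lowest on each array was not counted, so these and the counts below may hold for the arrays as a whole. SNRPB2 was higher there by 0.85 on the log2 scale than the mean of negative control 1 and 3, SNRPD1 by 0.68, SNRPE by 0.64 and SNRPC by 0.61. Mock 2 differed the same way from mock 1 and 3 for SNRPD1 (0.27), SNRPE (0.39) and SNRPC (0.45), and by 0.06 for SNRPB2. The differences of HNRNPC were -0.53 on negative control 2 and -0.40 on mock 2, and those of HNRNPU -0.33 on each. Other members differed in opposite ways on the 2 arrays. Among them were HNRNPF (0.29 on negative control 2 and -0.40 on mock 2), PRPF38A (0.17 and -0.42) and THOC6 (0.20 and -0.48). The mean of 23 snoRNAs and scaRNAs, the small guide RNAs of the nucleolus and Cajal bodies, was 6.78 on mock 2 and 6.83 on negative control 2, and 5.62 to 5.91 on the other control arrays. On mimic 1 to 3 it was 6.43, 5.95 and 6.75. The part of these RNAs in the members' values was not tested beyond the fit with their mean as a covariate.

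Mimic 1 was the highest of the 9 arrays for 20 members, mimic 2 for 14 and mimic 3 for 6. Mock 2 was the lowest for 18 and mock 1 for 11. The median deviation of the 67 members from their own means was 0.14, 0.10 and 0.05 on mimic 1 to 3, -0.03, -0.09 and 0.01 on mock 1 to 3, and -0.06, -0.001 and -0.06 on negative control 1 to 3. Every mimic array was thus above every control array by this measure, and the distance between mimic 3 and mock 3 was the smallest. The same measure was not taken over all genes or over genes of like brightness, so it may not be particular to the members. The 5 features of HNRNP pseudogenes that were left out of the members had differences of -0.14 to 0.07 against the negative control.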
